A study of Mus musculus with 8 samples.

Results

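The genes of pyruvate oxidation and the tricarboxylic acid cycle examined here were Pdha1, Pdhb, Dlat, Cs, Idh3a, Idh3b, Idh3g, Ogdh, Fh1 and Mdh2. They were chosen by name, with earlier results of these data known, and every probe set whose only gene symbol is one of these 10 was taken. All 10 genes were found, with 21 probe sets, among 10401 genes and 18443 probe sets of the table. Expression was measured on 8 single-colour arrays with RNA of enterocytes, the absorptive epithelial cells lining the small intestine, from male C57BL/6 mice aged 2.5 to 3.0 months on a standard diet. Of these, 4 arrays were from IE-Cpr-null mice, in which NADPH-cytochrome P450 reductase (Cpr), the enzyme that passes electrons to microsomal P450 enzymes, is deleted in the intestinal epithelium, and 4 from wild-type (WT) littermates. The labels name neither the Cre driver nor the alleles carried by the littermates. Each array held RNA pooled from 2 mice, 8 mice per genotype, so errors measure the spread between pools.

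Pyruvate made by glycolysis enters mitochondria, where the pyruvate dehydrogenase complex turns it into acetyl-CoA. Citrate synthase joins acetyl-CoA to oxaloacetate, and the cycle then oxidises the carbon in steps that pass electrons to the respiratory chain. The 3 strongly regulated dehydrogenases are pyruvate dehydrogenase, NAD-dependent isocitrate dehydrogenase and 2-oxoglutarate dehydrogenase. In the small intestine the cycle is also fed by glutamine, a main fuel of enterocytes.

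Promoters are shown for Dlat, which held the largest difference between the genotypes, for Cs, which did not differ beyond its spread, and for Idh3b and Idh3g, whose differences lay in the middle of the range and whose windows were chosen because they hold a motif match. The sequences come from RefSeq, build GRCm38.p6, and run from 250 bases before to 50 bases after the annotated start, 5′ to 3′ on the strand of the gene. Capitals mark matches to the motifs searched.
Dlat, chr9:50659731-50660030, minus strand: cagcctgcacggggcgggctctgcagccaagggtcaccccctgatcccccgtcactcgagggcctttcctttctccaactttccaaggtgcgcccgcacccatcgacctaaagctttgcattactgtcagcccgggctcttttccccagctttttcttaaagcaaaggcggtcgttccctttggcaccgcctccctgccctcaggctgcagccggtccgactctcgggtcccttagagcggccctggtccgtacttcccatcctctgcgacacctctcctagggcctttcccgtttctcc
Idh3b, chr2:130284402-130284701, minus strand: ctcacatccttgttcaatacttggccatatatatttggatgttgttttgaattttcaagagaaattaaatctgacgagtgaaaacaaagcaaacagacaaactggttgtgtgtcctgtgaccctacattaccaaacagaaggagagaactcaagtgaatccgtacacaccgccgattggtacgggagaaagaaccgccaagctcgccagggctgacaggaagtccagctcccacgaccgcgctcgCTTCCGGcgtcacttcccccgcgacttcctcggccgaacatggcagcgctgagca
Idh3g, chrX:73786848-73787147, minus strand: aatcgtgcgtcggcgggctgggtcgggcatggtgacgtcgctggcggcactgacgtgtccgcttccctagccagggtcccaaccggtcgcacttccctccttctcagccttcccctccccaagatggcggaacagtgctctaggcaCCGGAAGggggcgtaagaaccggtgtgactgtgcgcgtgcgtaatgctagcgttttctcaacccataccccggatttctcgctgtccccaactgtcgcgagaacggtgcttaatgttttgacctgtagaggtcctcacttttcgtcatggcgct
Cs, chr10:128337477-128337776, plus strand: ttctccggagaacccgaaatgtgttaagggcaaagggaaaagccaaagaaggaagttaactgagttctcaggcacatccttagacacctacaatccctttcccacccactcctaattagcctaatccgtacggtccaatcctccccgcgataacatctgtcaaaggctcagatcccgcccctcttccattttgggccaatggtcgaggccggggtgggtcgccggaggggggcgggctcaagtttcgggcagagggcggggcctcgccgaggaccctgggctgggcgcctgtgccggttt
The motifs were AAGGTCA, the core of the oestrogen-related receptor element, GCGCATG, part of the element of nuclear respiratory factor NRF1, and CCGGAAG, an element of the ETS family. Both strands were searched, and no match of one motif overlapped another in these 4 windows. RefSeq windows were at hand for 9 of the 10 genes (all but Idh3a), 14 windows in all. CCGGAAG was found for 2 genes, Idh3b, where the match starts at position -5 from the annotated start on the opposite strand, and Idh3g, where it starts at -104 on the gene's strand. AAGGTCA and GCGCATG were each found for 1 gene, in both cases in alternative Ogdh windows. Of all 32851 windows, 8.86% held CCGGAAG, 4.72% held AAGGTCA and 3.91% held GCGCATG. These shares count windows, whereas the matches above are counted by gene.

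Most of these genes read slightly lower in IE-Cpr-null enterocytes, while Cs, Ogdh and Mdh2 lay near 0, and none of the single differences passed the test across the array. Of the 21 probe sets, 19 were lower in IE-Cpr-null and 2 higher, where 42.5% of all probe sets were lower. The median difference over the 21 was -0.17, against 0.016 over all probe sets. All values are log2 values set against the WT median of their probe set, and every difference takes WT from IE-Cpr-null, with 4 pools in each genotype (n = 4). Levels of expression are unknown, so genes cannot be ranked by abundance. In bulk RNA, fewer cells of a type and less RNA per cell cannot be told apart.

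In limma with Benjamini-Hochberg adjustment over 18443 probe sets, 0 of the 21 passed an adjusted p of 0.05, where 0.0217% of all probe sets passed (4 in all). At an unadjusted p under 0.05, 12 of the 21 (57.1%) were lower and 0 higher, where 4.47% of all probe sets were lower and 2.92% higher. That count of 12 was 7 without WT array 2 (3.7% of all probe sets in that fit), and 8 without WT array 1 (4.18%) or IE-Cpr-null array 2 (3.54%). Leaving out the 6249 probe sets that share probes, among them those marked _a_at, _s_at or _x_at, kept 11 of the 21. Of these 11, 5 were lower and 0 higher at an unadjusted p under 0.05, where 918 of all probe sets kept were so in either direction. No probe set of Idh3b, Fh1 or Mdh2 was kept. In 8 of the 21 (38.1%) every IE-Cpr-null array lay below every WT array, where 2.47% of all probe sets did so, and in 0 above (1.64% of all). Probe sets of one gene read the same transcripts, so these counts do not rest on independent measurements. The genes were also chosen with earlier results of these data known, so the counts describe the list and do not test it. With probe sets averaged per gene, 9 of the 10 genes were lower, 7 of them at an unadjusted p under 0.05 (5.42% of 10401 genes) and 7 with groups that did not overlap (3% of genes), and 0 passed an adjusted p of 0.05 (0.0288% of genes passed). With arrays weighted by their quality, 4 of the 21 (19.0%) passed as lower, where 2.11% of all probe sets did: 1452005_at of Dlat (-0.58), 1422500_at of Idh3a (-0.34), 1416788_a_at of Idh3g (-0.16) and 1418560_at of Pdha1 (-0.15). That fit gave IE-Cpr-null array 4 a weight of 6.49, against 0.329 to 0.698 for the others of its group, and WT array 4 one of 2.84, against 0.519 to 0.992, and so leaned on 1 array in each genotype. Pdha1 1449137_at was then at -0.021, Pdhb 1416090_at at -0.076 and Pdhb 1448214_at at -0.072. Cs 1422577_at was at 0.11 (limma adjusted p = 0.109), the 1 member probe set higher at an unadjusted p under 0.05 in that fit.

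**Figure D1:**
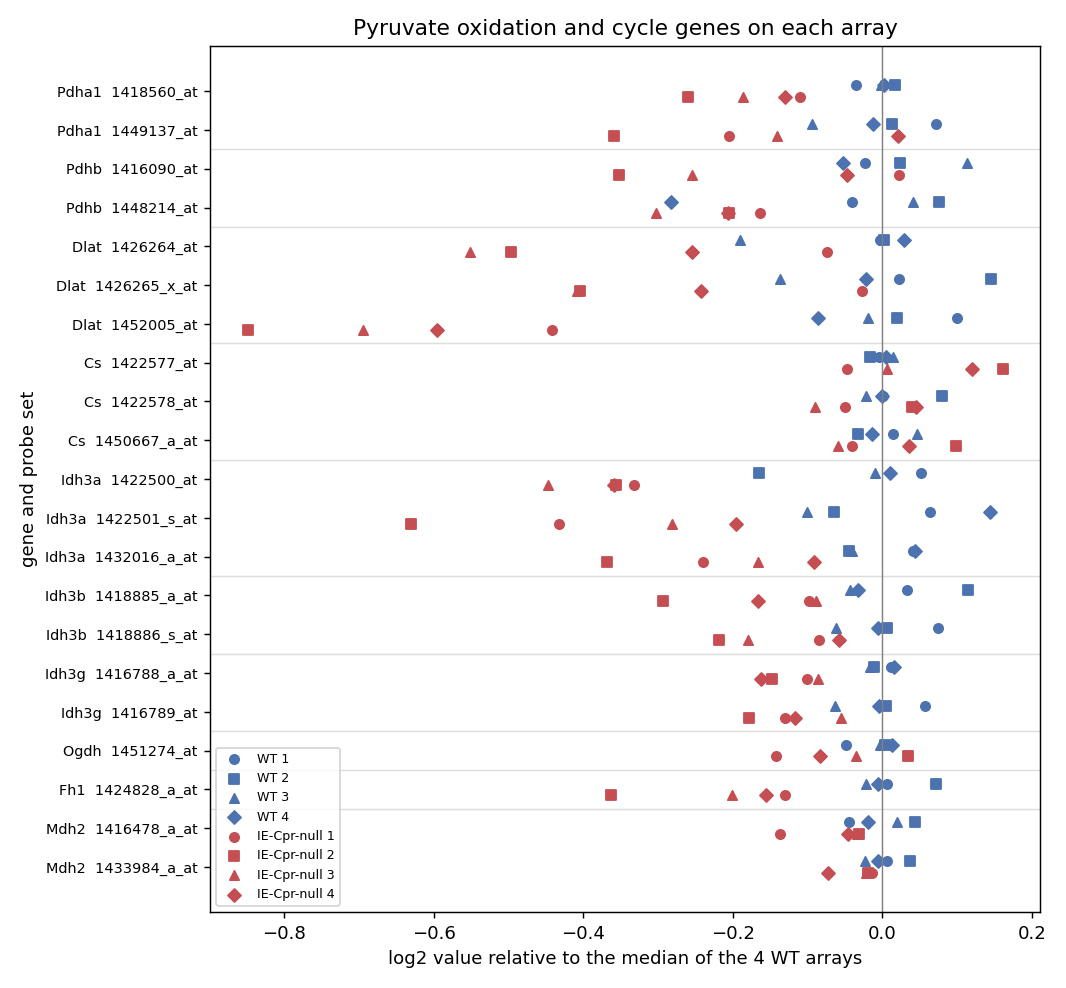
Log2 value of each of the 21 probe sets (rows, in the order of the pathway) on each of the 8 arrays, set against the WT median. Blue symbols are WT and red symbols IE-Cpr-null arrays, with 1 symbol shape per replicate number. The red symbols lie left of all blue ones in 8 rows and are mixed with them in the 3 Cs rows.

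The pyruvate dehydrogenase complex was represented by 3 genes and 7 probe sets, all 7 lower in IE-Cpr-null, with a median difference of -0.17. Dlat encodes the E2 subunit, the dihydrolipoamide acetyltransferase that forms the core of the complex. Its probe set 1452005_at read 0.10, 0.019, -0.019 and -0.086 on WT arrays 1 to 4 and -0.44, -0.85, -0.69 and -0.60 on IE-Cpr-null arrays 1 to 4. The groups were well separated, with a gap wider than the range of the WT arrays. The difference was -0.65 (SE 0.088), a ratio of 0.638, and it ranked 16 of 18443 by p without passing (limma adjusted p = 0.125). Only 1.09% of probe sets had a difference as low or lower.

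The other Dlat probe sets gave smaller differences. The values of 1426264_at were -0.0027, 0.0027, -0.19 and 0.029 in WT against -0.074, -0.50, -0.55 and -0.25 in IE-Cpr-null. WT array 3 was low and IE-Cpr-null array 1 high, so the groups overlapped, and the difference was -0.30 (SE 0.11, limma adjusted p = 0.585). Probe set 1426265_x_at, whose probes may be shared with other transcripts, differed by -0.27 (SE 0.099) with the same 2 arrays overlapping. The 95% intervals of the 3 probe sets overlapped, from -0.85 to -0.44 for the first, -0.57 to -0.042 for the second and -0.50 to -0.041 for the third. The gene mean over the 3 was -0.41 (SE 0.094, ratio 0.754).

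Pdha1 and Pdhb encode the alpha and beta subunits of E1, the component that decarboxylates pyruvate and whose alpha subunit is switched off by phosphorylation. Pdha1 probe set 1418560_at read -0.036, 0.017, -0.0026 and 0.0026 on the WT arrays and -0.11, -0.26, -0.19 and -0.13 on the IE-Cpr-null arrays. Every IE-Cpr-null value was below every WT value, with a difference of -0.17 (SE 0.042, ratio 0.891, limma adjusted p = 0.345). The second Pdha1 probe set, 1449137_at, gave the same difference of -0.17 with a larger SE of 0.082, since IE-Cpr-null array 4 stood at 0.021, inside the WT range of -0.094 to 0.072.

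Both Pdhb probe sets also differed by -0.17, with SE 0.089 for 1416090_at and 0.081 for 1448214_at, and in neither were the groups apart. In 1416090_at IE-Cpr-null arrays 2 and 3 were low, at -0.35 and -0.25, and arrays 1 and 4 lay within the WT range at 0.022 and -0.048. In 1448214_at the IE-Cpr-null arrays were close together, from -0.30 to -0.16, and WT array 4 was as low at -0.28. Both 95% intervals of Pdhb included 0 (-0.38 to 0.034 and -0.36 to 0.022). Part of the E1 difference rested on single arrays: without IE-Cpr-null array 2, Pdhb 1416090_at differed by -0.11 and Pdha1 1449137_at by -0.10.

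Citrate synthase, encoded by Cs, makes the first intermediate of the cycle and is often used as a measure of mitochondrial content. Its 3 probe sets differed by 0.061 (SE 0.052), -0.029 (SE 0.045) and 0.0049 (SE 0.046). On the gene mean WT values ran from -0.0034 to 0.013, and the IE-Cpr-null arrays stood at -0.046, 0.10, -0.048 and 0.067. IE-Cpr-null arrays 2 and 4 were above the WT arrays and arrays 1 and 3 below them. The difference of the gene mean was 0.012 (SE 0.043) with a 95% interval of -0.088 to 0.11. That interval does not reach the estimates of Dlat, Idh3a, Idh3b, Idh3g, Fh1, Pdha1 or Pdhb. It overlaps the 95% intervals of Pdha1 (-0.29 to -0.037), Pdhb (-0.34 to -0.00071), Idh3b (-0.27 to -0.046) and Idh3g (-0.20 to -0.041). The differences between genes were not themselves tested.

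NAD-dependent isocitrate dehydrogenase is built from a catalytic alpha subunit, encoded by Idh3a, and beta and gamma subunits, encoded by Idh3b and Idh3g, the gamma subunit having a regulatory role. All 7 probe sets of the 3 genes were lower in IE-Cpr-null at an unadjusted p under 0.05, where 4.47% of all probe sets were. In 5 of them the groups did not overlap, where 2.47% of all probe sets were lower without overlap. None passed the adjusted threshold. The 7 probe sets read only 3 genes on the same arrays and are not independent measurements. Their median difference was -0.18. No probe set of the 3 subunits had a 95% interval that included 0.

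Idh3a had the largest differences of the 3 subunits. Probe set 1422500_at read 0.051, -0.16, -0.010 and 0.010 in WT against -0.33, -0.36, -0.45 and -0.36 in IE-Cpr-null. The 4 IE-Cpr-null arrays were close together and all below WT array 2, the lowest of the WT arrays. The difference was -0.35 (SE 0.055, ratio 0.787), rank 29 of 18443 by p (limma adjusted p = 0.19). Probe set 1422501_s_at, at -0.43, -0.63, -0.28 and -0.20 on the IE-Cpr-null arrays against -0.10 to 0.14 in WT, differed by -0.40 (SE 0.10). The third, 1432016_a_at, differed by -0.22 (SE 0.063), with IE-Cpr-null arrays from -0.37 to -0.091 and WT arrays from -0.045 to 0.044. The groups were apart in all 3 probe sets, and the gene mean differed by -0.32 (SE 0.061, ratio 0.802, limma adjusted p over genes 0.187).

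Idh3b and Idh3g differed less. Idh3b probe set 1418885_a_at read 0.033, 0.11, -0.043 and -0.033 in WT against -0.099, -0.29, -0.089 and -0.17 in IE-Cpr-null, a difference of -0.18 (SE 0.060, limma adjusted p = 0.523). The groups were apart, with array 2 the lowest. Probe set 1418886_s_at differed by -0.14 (SE 0.050), and there IE-Cpr-null array 4 at -0.059 lay just above WT array 3 at -0.063. Idh3g probe set 1416788_a_at had the tightest arrays of the enzyme, 0.012, -0.012, -0.016 and 0.016 in WT against -0.10, -0.15, -0.086 and -0.16 in IE-Cpr-null. It differed by -0.12 (SE 0.033, ratio 0.918, limma adjusted p = 0.381), and all 4 IE-Cpr-null arrays were below WT. Idh3g probe set 1416789_at also differed by -0.12 (SE 0.042), with IE-Cpr-null array 3 at -0.056 just above WT array 3 at -0.063. The promoters of these 2 genes are those printed above with an ETS match, and the part of that match in their values was not tested.

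**Figure D2:**
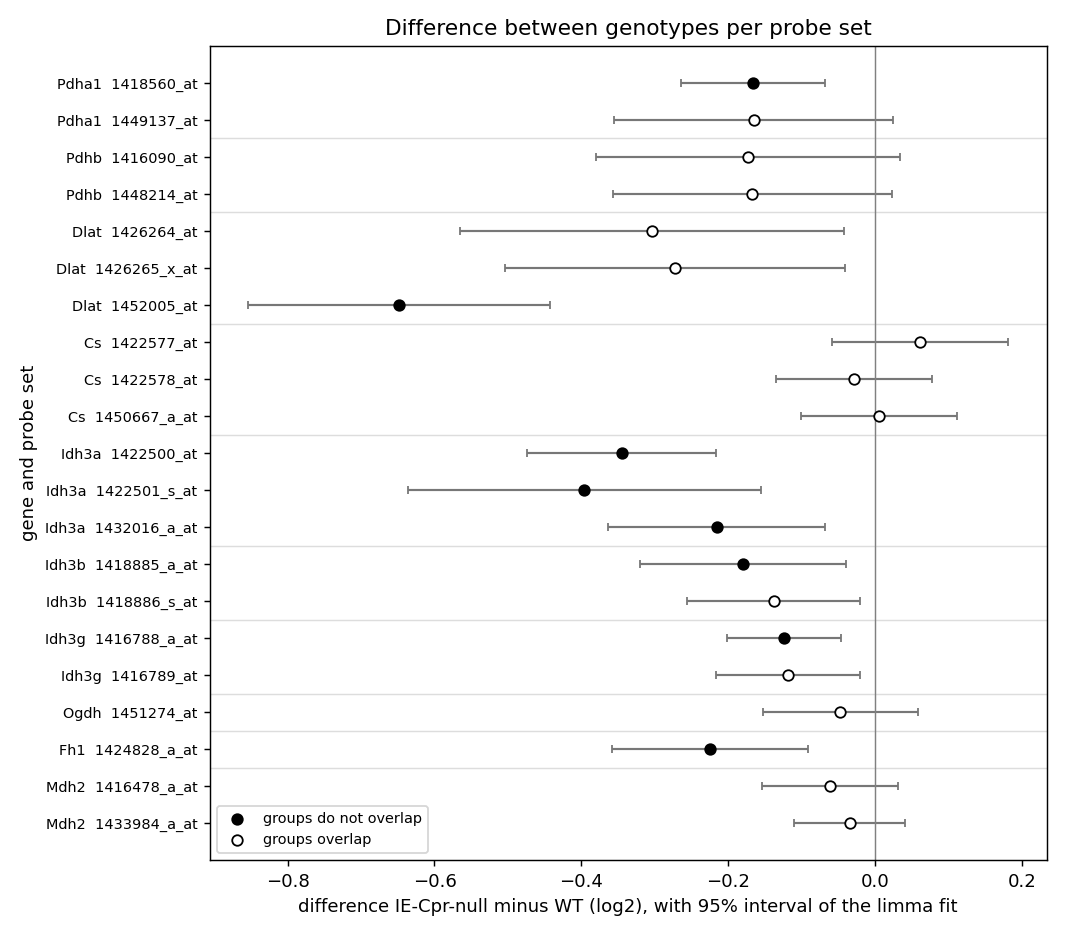
Difference between genotypes, IE-Cpr-null minus WT on the log2 scale, for each of the 21 probe sets, with the 95% interval of the limma fit as bars. Filled points mark the 8 probe sets whose groups did not overlap, among them all 3 of Idh3a and 1452005_at of Dlat at -0.65. The 3 Cs points lie on both sides of 0.

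Of the later steps, fumarate hydratase was lower and the others lay near 0. Fh1, which encodes the enzyme that turns fumarate into malate, read 0.0065, 0.072, -0.022 and -0.0065 in WT against -0.13, -0.36, -0.20 and -0.16 in IE-Cpr-null. Its groups were apart by more than the WT range, with array 2 again the lowest, and its difference was -0.22 (SE 0.057, ratio 0.856, limma adjusted p = 0.35). Ogdh, the E1 of the 2-oxoglutarate dehydrogenase complex and the relative of pyruvate dehydrogenase in the cycle, read -0.049, 0.0039, -0.0039 and 0.013 in WT against -0.14, 0.034, -0.035 and -0.084 in IE-Cpr-null. The groups overlapped, since IE-Cpr-null array 2 was the highest of all 8, and the difference was -0.048 (SE 0.045) with a 95% interval of -0.15 to 0.058.

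Mdh2 encodes the mitochondrial malate dehydrogenase that restores oxaloacetate. Its probe sets differed by -0.062 (SE 0.040) and -0.035 (SE 0.032), with 95% intervals of -0.15 to 0.031 and -0.11 to 0.040. In 1416478_a_at IE-Cpr-null array 1 was the lowest at -0.14 and the others stood at -0.031, -0.034 and -0.046, against -0.044 to 0.044 in WT. The groups overlapped in both probe sets. They did not overlap on the gene mean, where IE-Cpr-null ran from -0.075 to -0.025 and WT from -0.019 to 0.040, a difference of -0.048 (SE 0.031, limma adjusted p over genes 0.772).

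**Figure D3:**
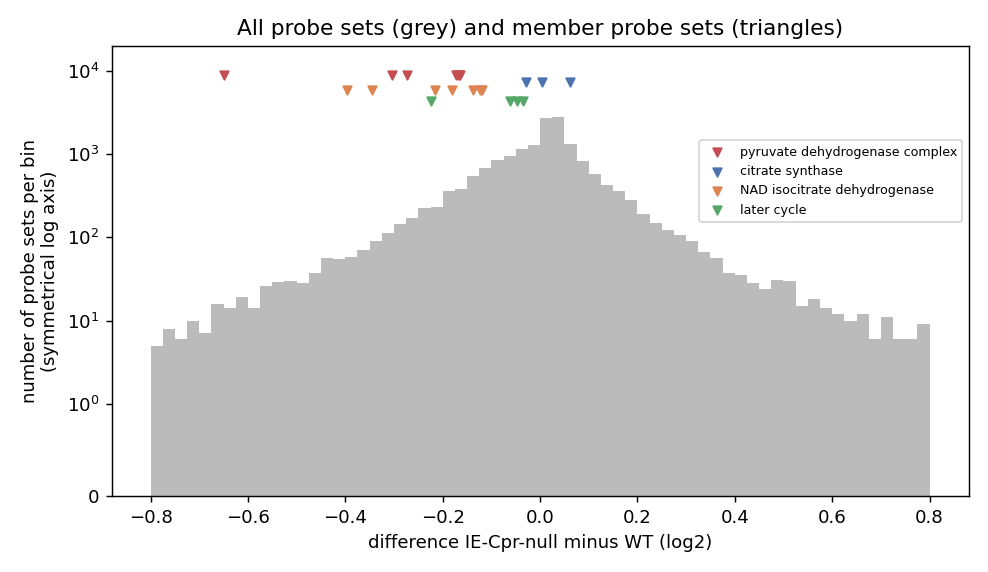
Number of probe sets per bin of the difference IE-Cpr-null minus WT (log2) on a symmetrical log axis, in grey, with the 21 member probe sets as triangles coloured by step and placed at their difference (height carries no value); 303 probe sets beyond the axis are not drawn. Most triangles lie left of the centre of the distribution, at a median of -0.17 against 0.016 for all probe sets, and the blue triangles of Cs lie at the centre.

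The differences were not carried by the same array in every gene. IE-Cpr-null array 2 was the lowest of the 8 arrays in 10 of the 21 probe sets, array 3 in 6, array 1 in 3 and array 4 in 2, and no WT array was the lowest in any. The mean over the 21 probe sets was 0.017, 0.015, -0.029 and -0.013 on the WT arrays and -0.14, -0.25, -0.20 and -0.13 on the IE-Cpr-null arrays. All 4 IE-Cpr-null means were below the WT means, and arrays 2 and 3 were the lowest. The mean of all 18443 probe sets lay between -0.026 and 0.029 on every array. The spread within groups was smaller than over all probe sets, with a median SD of 0.049 in WT and 0.076 in IE-Cpr-null over the 21 probe sets, against 0.091 and 0.12 over all.

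RNA of other tissues differed between the arrays. Hepatocyte markers (11 of 14 listed genes measured, 13 probe sets) had means of 5.31 and 3.25 on IE-Cpr-null arrays 2 and 3, and of -0.20 to 0.25 on the other 6 arrays. The 10 genes were lowest on those 2 arrays, and on IE-Cpr-null arrays 1 and 4, where the hepatocyte means were -0.20 and 0.17, their means were -0.14 and -0.13. Without arrays 2 and 3 the median difference was -0.12 and 7 of the 21 were lower at an unadjusted p under 0.05, where 4.39% of all probe sets were in that fit. Cs apart, 6 probe sets then moved by over 1.5 times. Pdhb 1416090_at was at -0.028, Pdha1 1449137_at at -0.086, Dlat 1426264_at at -0.12, Dlat 1426265_x_at at -0.14 and Idh3b 1418886_s_at at -0.075, all closer to 0, while Ogdh was further from it at -0.10. Dlat 1452005_at (-0.52) and Idh3a 1422500_at (-0.32) moved less. Pancreatic acinar markers (9 of 12 genes, 15 probe sets) had means of -0.63, 1.76, -5.13 and 0.65 in WT against -2.12, -5.19, -5.29 and -5.23 in IE-Cpr-null. WT array 3 was nearly as low in acinar transcripts as IE-Cpr-null arrays 2 to 4. Its mean over the 21 probe sets was -0.029, the lowest of the WT arrays, against -0.013 to 0.017 on the others. Without that array the median difference was -0.16, and the remaining WT arrays had acinar means of -0.63 to 1.76. These all lay above the IE-Cpr-null arrays, so acinar RNA and genotype cannot be told apart there. The part of hepatocyte and acinar RNA in the result was not tested.

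Muscle and stroma markers (11 of 13 genes, 15 probe sets) were high on IE-Cpr-null array 1, at 3.49, and on WT array 2, at 1.31, and lay between -0.49 and 0.12 elsewhere. Without these 2 arrays the median difference was -0.15 and 10 of the 21 were lower at an unadjusted p under 0.05, where 4.92% of all probe sets were in that fit. Goblet cell markers (5 of 6 genes, 7 probe sets) had means of -0.031, -0.29, -0.39 and -0.16 in IE-Cpr-null and -0.088 to 0.051 in WT. The means of IE-Cpr-null arrays 2 and 3 hold Clca1 1459889_at at -0.84 and -1.73. Medians over the goblet probe sets were -0.12, -0.20, -0.13 and -0.18 in IE-Cpr-null and -0.014 to 0.014 in WT. The part of goblet cells in the result was not tested. Enterocyte markers (11 of 13 genes, 14 probe sets) had means of -0.093 to 0.034 in WT and -0.10 to -0.018 in IE-Cpr-null. Of their probe sets 0 passed an adjusted p of 0.05, where 0.0217% of all did. At an unadjusted p under 0.05, 1 (7.14%) was lower, where 4.47% of all probe sets were. It was Slc2a2 1449067_at, at -0.28 (SE 0.061) with groups apart. Lymphocyte markers (8 of 9 probe sets higher, median 0.17) had means of -0.085 to 0.084 in WT and of -0.089, 0.20, 0.24 and 0.23 in IE-Cpr-null, above every WT array on arrays 2 to 4. Macrophage and dendritic markers (all 6 probe sets lower, median -0.49) had means of -0.42 to 0.76 in WT and -0.97 to -0.21 in IE-Cpr-null. Crypt and cycling markers (3 of 6 genes, 3 probe sets) overlapped as well, from -0.20 to 0.68 in WT and from -0.84 to 1.02 in IE-Cpr-null. Among them Pcna differed by -0.26 (SE 0.048, limma adjusted p = 0.251) with groups apart, while the groups overlapped in Mki67 and Top2a. The part of these lists in the result was not tested. Because values are centred, the presence of these markers cannot be read as a level.

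**Figure D4:**
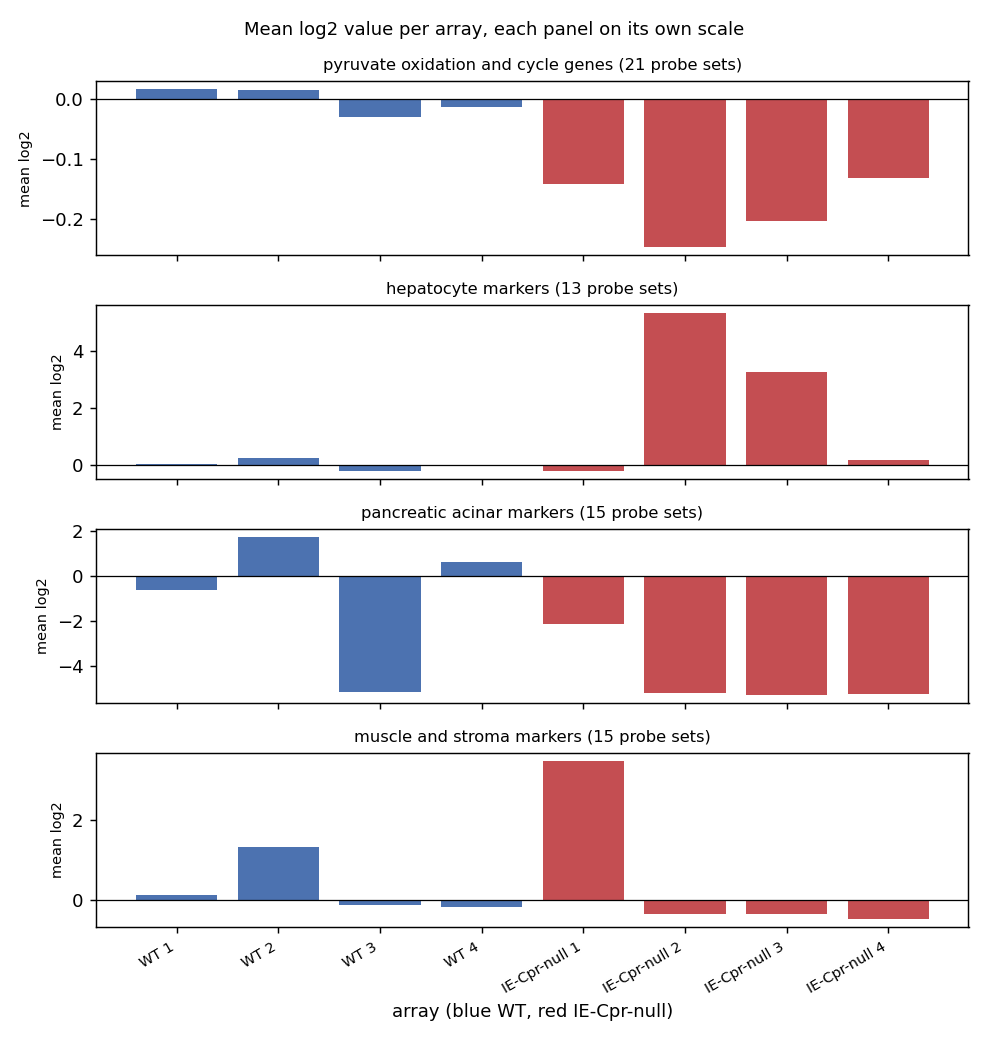
Mean log2 value on each array (WT blue, IE-Cpr-null red) of the 21 probe sets of pyruvate oxidation and cycle genes and of the hepatocyte, pancreatic acinar and muscle and stroma markers, each panel on its own scale. The top panel lies at -0.13 to -0.25 on all IE-Cpr-null arrays, and the hepatocyte panel is high only on IE-Cpr-null arrays 2 and 3.

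The rest of the pathway was read through 4 further lists, which together had 43 measured genes and 78 probe sets. Of these, 49 were lower and 29 higher with a median of -0.038, and 0 passed an adjusted p of 0.05 in limma, where 0.0217% of all probe sets passed. At an unadjusted p under 0.05, 9 (11.5%) were lower and 4 (5.13%) higher, where 4.47% and 2.92% of all probe sets were. The lists differed from the 10 genes in that their medians lay closer to 0, a difference that was not tested. Members and lists were chosen with earlier results of these data known.

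The remaining subunits and regulators of pyruvate dehydrogenase had 6 measured genes of 11 and 7 probe sets, 6 of them lower, with a median of -0.094. Pdk4 encodes the pyruvate dehydrogenase kinase that shuts E1 off in fasting and that is also a well known target of the fatty acid receptor PPARa. It read 0.94, -0.76, -0.18 and 0.18 in WT against -0.87, -1.59, -2.49 and -1.49 in IE-Cpr-null, a difference of -1.65 (SE 0.44, limma adjusted p = 0.378) with every IE-Cpr-null array below WT. Pdk2, another of the kinases, differed by -0.097 (SE 0.032) with WT arrays from -0.017 to 0.016 and IE-Cpr-null arrays from -0.13 to -0.056. Dld, which encodes the E3 subunit shared by the pyruvate and 2-oxoglutarate complexes, differed by -0.053 (SE 0.068), within its spread.

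The other enzymes of the cycle had 8 measured genes of 9 and 12 probe sets, 10 of them lower, with a median of -0.061. Sdha, the flavoprotein of succinate dehydrogenase, which is also complex II of the respiratory chain, differed by -0.088 (SE 0.034) in 1426688_at, with groups apart, and by -0.064 (SE 0.047) in 1426689_s_at, where they overlapped. Sdhd, a membrane anchor of that enzyme, differed by -0.088 (SE 0.043) and -0.014 (SE 0.047). Neither gene had a difference as large as those of Idh3a, Fh1 or Dlat.

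Among isozymes and side reactions, 15 genes of 18 and 30 probe sets were measured, 18 lower and 12 higher, with a median of -0.030. Got2 encodes the mitochondrial aspartate aminotransferase, which exchanges oxaloacetate with aspartate in the malate-aspartate shuttle. Its probe set 1417715_a_at read -0.15, -0.0032, 0.0032 and 0.049 in WT against -0.24, -0.38, -0.39 and -0.46 in IE-Cpr-null, a difference of -0.34 (SE 0.064, limma adjusted p = 0.246) with groups apart. The second Got2 probe set differed by -0.40 (SE 0.11), also with groups apart. Idh1, the cytosolic NADP-dependent isocitrate dehydrogenase, which is not part of the cycle, differed by -0.33 (SE 0.070) and -0.26 (SE 0.078). In the first probe set IE-Cpr-null ran from -0.44 to -0.21 and WT from -0.071 to 0.15.

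The genes of pyruvate supply, from hexokinase to lactate dehydrogenase and the monocarboxylate transporter, had 14 measured genes of 18 and 29 probe sets, 15 lower and 14 higher, with a median of -0.032. The 2 pyruvate kinase genes differed in opposite directions. Pkm read -0.079, 0.030, -0.015 and 0.015 in WT against -0.29, -0.13, -0.26 and -0.19 in IE-Cpr-null, a difference of -0.20 (SE 0.048, limma adjusted p = 0.337). Pklr, the isozyme of liver, red cells and small intestine, was higher in its 3 probe sets by 0.29 (SE 0.098), 0.31 (SE 0.10) and 0.27 (SE 0.099). The limma adjusted p was 0.519, 0.528 and 0.569, and the groups were apart only in the third. All 3 were among the 4 higher pathway probe sets at an unadjusted p under 0.05. The highest Pklr values, 0.56, 0.51 and 0.50, were on IE-Cpr-null array 2, where hepatocyte markers were also highest (5.31). The part of hepatocyte RNA in the Pklr difference was not tested.

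**Figure D5:**
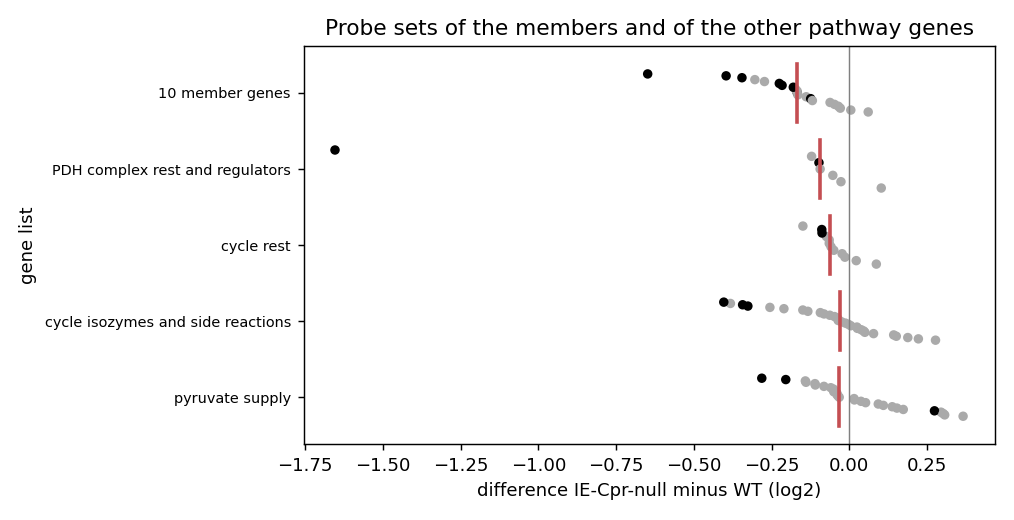
Difference IE-Cpr-null minus WT (log2) of each probe set of the 10 genes and of the 4 other pathway lists. Black points are probe sets whose groups did not overlap, grey points the others, and red bars the medians, which are -0.17 for the 10 genes and -0.094, -0.061, -0.030 and -0.032 for the lists from top to bottom.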

How the data were processed

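The authors deposited log2 values for each probe set on each array, made with GCRMA per the submitters' processing notes (version and settings: not given in the sources). In every probe set the WT median was 0 within 1e-06, so values had also been centred, signal over background is unknown and no dim probe set was left out. Probe sets were named from the platform annotation (16689 with 1 symbol, 616 with several, 1138 with none).

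All 18443 probe sets were fitted with limma 3.58.1 in R 4.3.3 (lmFit, eBayes with a constant prior, two-sided, 2 group means, no block). The script was tested on simulated data. The members and lists were chosen with earlier results of these data known. Lists are described by counts and medians. Named outside the 10 genes were the 2 genes of smallest p in each pathway list. Dld and the single marker genes named, such as Slc2a2, were chosen after their values were seen. Same-numbered arrays correlated in their deviations from the group means by -0.058, -0.041, 0.26 and 0.13. For WT arrays 3 and 4 the same-numbered IE-Cpr-null array was the best match, and for 1 and 2 it was not. Pairing by number is therefore neither shown nor excluded, and the main fit did not use it. The labels give no batch. Alternatives were quantile normalization, median centring, array weights, a robust prior, the replicate block, gene means, leaving out probe sets that share probes, leaving out the 2 muscle-rich or the 2 hepatocyte-rich arrays, and each array left out in turn. The targeted gene is not analysed here.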

Additional observations from a re-analysis of the deposited data

Results flagged for a closer look

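Dixon's test on the 4 arrays of each genotype, 42 groups of values for the 21 probe sets, singled out 3 arrays (7.14%), where chance gives about 1 in 20. In Dlat probe set 1426264_at WT array 3 stood at -0.19, below the other WT arrays at -0.0027 to 0.029. In Mdh2 probe set 1416478_a_at IE-Cpr-null array 1 stood at -0.14, below the others at -0.046 to -0.031. In Mdh2 probe set 1433984_a_at IE-Cpr-null array 4 stood at -0.072, below the others at -0.022 to -0.014.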

How the results depend on the processing

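Of 326 values of the 21 probe sets under the alternatives, 318 kept their direction and 8 turned, all 8 in Cs. Cs 1422578_at turned with array weights (0.019) and without the muscle-rich arrays (0.0051), and Cs 1450667_a_at with median centring (-0.0084), without the hepatocyte-rich arrays (-0.0063) and in 4 of 8 settings that leave out 1 array (-0.025 to 0.028). With array weights, 4 of the 21 probe sets passed in limma, all lower. So did 6 of the 78 probe sets of the pathway lists, all lower, and 741 of all probe sets, 352 higher and 389 lower (2.11% lower). That fit leaned on 1 array in each genotype. Leaving out 1 array gave 0 to 1 passing among the 21 (Dlat 1452005_at, -0.72, adjusted p = 0.0493, without IE-Cpr-null replicate 1, and from 0.011 to 0.90 over its 16 alternatives), 0 to 0 in the pathway lists, 1 to 16 among all probe sets, and medians of -0.19 to -0.12 over the 21. Over all probe sets 1 passed with quantile normalization (643 at an unadjusted p under 0.05) and 1 with the replicate block (1515). The median over the 21 was -0.11 after quantile normalization and -0.17 in the blocked fit, and it lay within -0.19 to -0.11 in every alternative. The cause of these shifts was not tested. Beyond the centring, 4 arrays per genotype limit the precision.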
